A study of Mus musculus with 9 samples.

Results

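The nuclear-encoded subunits of the mitochondrial respiratory chain and ATP synthase were followed in cultured mouse articular chondrocytes, the cells of joint cartilage. Members were chosen by symbol: the Nduf genes of complex I, the Sdh genes of complex II, the Uqcr genes and Cyc1 of complex III, the Cox4 to Cox8 genes of complex IV and the Atp5 genes of complex V. Of 85 matching rows, 80 reached 1 FPKM (fragments per kilobase of exon, scaled to library size) in at least 3 of the 9 libraries, out of 12441 genes that passed this filter and 55450 listed. They comprise 36 genes of complex I, 4 of complex II, 9 of complex III, 15 of complex IV and 16 of complex V. The study asks how O-GlcNAcylation, the attachment of a single sugar to nuclear and cytoplasmic proteins, bears on cellular senescence. All primary cultures were grown at 3% oxygen with 10% serum and pretreated with hyaluronidase (4 U/mL, 4 h). The vehicle group received PBS for 24 h and then DMSO for 5 days. The bleomycin group received 50 µg/mL bleomycin, a DNA-breaking drug, for 24 h and then DMSO for 5 days. The last group received the same bleomycin and then ST045849, an inhibitor of O-GlcNAc transferase, at 20 µM for 5 days, with medium renewed every 48 h. Each group has 3 libraries, numbered 1 to 3 in the labels. The sources used here give neither strain nor age of the mice, and a group given ST045849 without bleomycin was not analysed here. Whether a group's 3 libraries stem from different animals or culture dishes is not stated in the labels, and p-values then measure only the spread between these samples, which may be technical.

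Complex I takes electrons from NADH and complex II from succinate, and both pass them through ubiquinone to complex III. Complex III hands them through cytochrome c to complex IV, which reduces oxygen. Complexes I, III and IV pump protons out of the matrix, and complex V lets them back to make ATP. Most subunits are encoded in the nucleus, while a few subunits of complexes I, III, IV and V are encoded in mitochondrial DNA. Those mitochondrial genes were not analysed here. Articular cartilage has no blood vessels, and its cells are known to draw much of their energy from glycolysis.

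Chondrocyte markers were abundant in every library: the 10 listed genes, among them Col2a1 and Acan, summed to 26451 to 36398 FPKM in vehicle, 19710 to 27787 in bleomycin and 16532 to 23585 in bleomycin plus ST045849. Most of each sum was Col2a1. Acan, Col11a1 and Matn3 were called lower with both agents than in vehicle (limma adjusted p 0.0066, 0.0388 and 0.0097). The other chondrocyte genes listed were called in no comparison. The macrophage list had 3 of 10 genes above the filter, with sums of 3.05 to 5.75 FPKM in vehicle, 10.9 to 12.6 in bleomycin and 11.9 to 18.0 in bleomycin plus ST045849. Its 3 genes Cd14, Cd68 and Lyz2 were called higher in bleomycin than in vehicle (limma adjusted p 0.0385, 0.0290 and 0.0152), while 3 other genes of the list (C1qb, C1qc, Tyrobp) stood at 0 throughout. The fibroblast or synovial list of 7 genes summed to 1689 to 2373 FPKM in vehicle, 2568 to 3697 in bleomycin, without overlap, and 1436 to 2831 with ST045849, and its member Thy1 was called higher in bleomycin than in vehicle (adjusted p 0.0126). The fat list had 2 of 5 genes above the filter, summed to 7.48 to 17.8, 12.4 to 18.0 and 25.9 to 33.1 FPKM, without overlap between the ST045849 libraries and the other 6. Of its genes, Fabp4 was called higher with both agents than in vehicle (adjusted p 0.0311). Cidea, known from brown fat, had FPKM of 0.526, 0.301 and 0.0804 in vehicle, 1.25, 0.916 and 0.998 in bleomycin and 2.78, 2.71 and 2.62 with ST045849 and was called higher than vehicle in both treated groups (adjusted p 0.0473 and 0.0011), while Ucp1, the defining brown fat gene, stayed under 1 FPKM in all 9 libraries. The part of these cells in the results was not tested. In bulk RNA, fewer cells of a type and less RNA per cell cannot be told apart. The marker values were also not adjusted for the length trend described below.

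The 80 genes together made up 1.33 to 2.55% of each library's FPKM sum. Vehicle library 1 and ST045849 library 1 stood apart from their groups in these genes, the first high and the second low, and results that rest on them are given with and without them. Levels are on the FPKM scale, which is per length. The median gene of complex V had a mean over the 9 libraries of 125 FPKM, against 107 for complex IV, 87.0 for complex III, 58.0 for complex II and 52.7 for complex I. Within complexes the spread was wide. Cox6a1, a structural subunit of complex IV, was the highest of that complex, with FPKM of 341, 213 and 241 in vehicle, 214, 286 and 282 in bleomycin and 299, 653 and 593 in bleomycin plus ST045849. Atp5b, the catalytic beta subunit of ATP synthase, was the highest of complex V, with FPKM of 385, 236 and 289 in vehicle, 203, 284 and 279 in bleomycin and 257, 475 and 353 in bleomycin plus ST045849. For both genes library 2 of the ST045849 group was the highest of the 9.

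Muscle paralogs of complex IV were the low end. Cox6a2 and Cox7a1, the forms known from heart and skeletal muscle, were the only members under 1 FPKM in some library, and the other 78 exceeded it in all 9. Cox7a1 was just inside the threshold, with 3 of 9 libraries at 1 FPKM or more and values of 0.851, 0.447 and 0.940 in vehicle, 0.935, 2.38 and 0.934 in bleomycin and 0.906, 1.88 and 1.88 in bleomycin plus ST045849. The 5 matching rows that failed it were Cox6c2, annotated as a processed pseudogene, with at most 0.881 FPKM, Cox7b2 with at most 0.275, Cox8b with at most 0.463, Cox8c with at most 0.0609, and a second identifier of Atp5o listed at 0 throughout. The widely expressed Cox8a had FPKM of 244, 152 and 144 in vehicle, where Cox8b, the muscle form, was listed at 0.

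**Figure D1:**
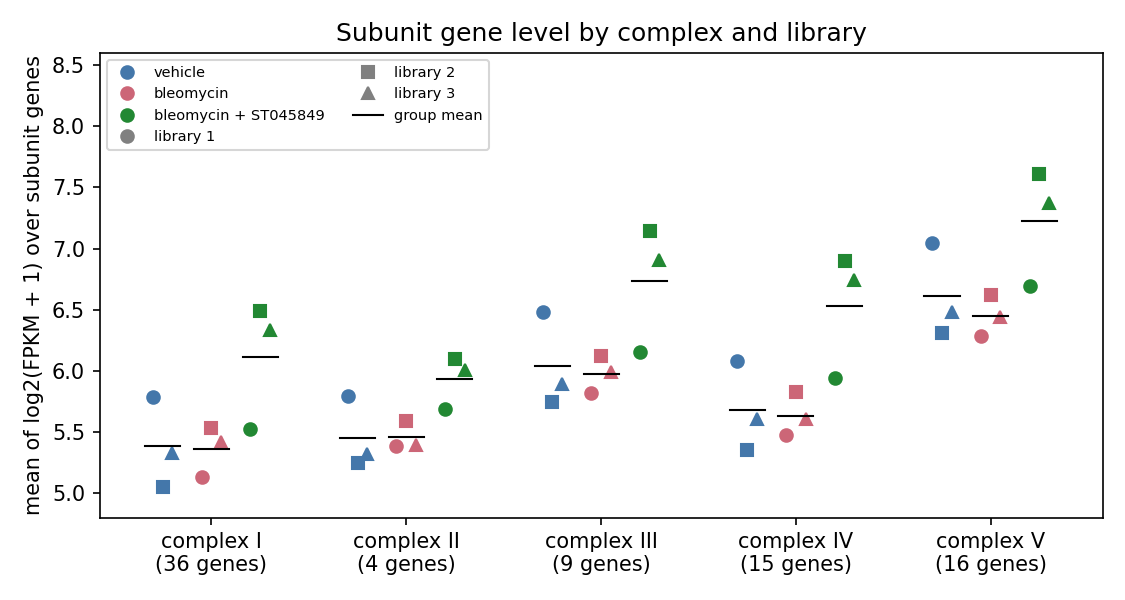
Mean of log2(FPKM + 1) over the subunit genes of each complex, 1 point per library (circle, square and triangle for libraries 1, 2 and 3) and a line at the group mean. In each complex, libraries 2 and 3 of bleomycin plus ST045849 are the 2 highest, while its library 1 lies below vehicle library 1.

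Bleomycin against vehicle asks what DNA damage followed by 5 days of culture left in these genes. Of the respiratory subunits 2 genes of complex IV passed the test: Cox6b2 rose and Cox7a2l fell. With limma, 2 of 80 members were called at an adjusted p under 0.05, against 4.88% of all tested genes in either direction. The median difference of the members on the log2(FPKM + 1) scale was -0.06, with 27 of 80 higher, while that of all tested genes was 0.10. By complex the medians were -0.03, 0.03, -0.02, -0.13 and -0.16 for complexes I to V. With the length trend described below removed the median was -0.15 with 16 of 80 higher, beside -0.03 for all genes, and with median-of-ratios scaling it was -0.20 with 9 of 80 higher, beside -0.02. In both settings all 16 complex V members were lower. In FPKM as deposited no direction is read for the set: its median turned to 0.13 without vehicle library 1 and to 0.04 without bleomycin library 1.

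Cox6b2 (ENSMUSG00000051811, chromosome 7, 4751792 to 4753094, minus strand) encodes the paralog of Cox6b1 known from testis, a subunit at the interface of the complex IV dimer. Its FPKM were 4.12, 3.39 and 2.23 in vehicle, 16.1, 14.2 and 11.0 in bleomycin and 15.6, 22.2 and 17.7 in bleomycin plus ST045849. Every bleomycin and ST045849 library lay above every vehicle library, and the 2 treated groups overlapped. The difference between bleomycin and vehicle was 1.81 ± 0.23 SE on the log2 scale (adjusted p 0.0028, n = 3 per group), and the call held without any 1 of the 9 libraries. Its widely expressed counterpart Cox6b1 had FPKM of 188, 104 and 142 in vehicle, 127, 178 and 166 in bleomycin and 170.4, 417 and 356 in bleomycin plus ST045849, so Cox6b2 remained the minor form. The ratio of Cox6b2 to Cox6b1 was 0.0219, 0.0327 and 0.0158 in vehicle and 0.126, 0.0797 and 0.0664 in bleomycin, without overlap (two-sided exact permutation p 0.1, the smallest that 3 against 3 allows).

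Cox7a2l (chromosome 17, 83501918 to 83517330, minus strand), also called SCAF1, encodes a protein known for joining complex III to complex IV in supercomplexes. Its FPKM were 144, 73.4 and 116 in vehicle, 24.0, 38.9 and 54.3 in bleomycin and 85.4, 127 and 161 in bleomycin plus ST045849. All 3 bleomycin libraries were below all libraries of the other groups, and vehicle and ST045849 libraries overlapped. The difference between bleomycin and vehicle was -1.51 ± 0.35 SE, with an adjusted p of 0.0353. This call did not hold when vehicle library 1, vehicle library 3, bleomycin library 1 or bleomycin library 2 was left out (adjusted p up to 0.136), nor with no filter on low values (adjusted p 0.106). Cox7a2, the related subunit of complex IV itself, had FPKM of 120.4, 65.9 and 85.6 in vehicle, 50.8, 88.7 and 82.2 in bleomycin and 98.9, 194 and 173 in bleomycin plus ST045849, and the ratio of Cox7a2l to Cox7a2 was 1.19, 1.11 and 1.36 in vehicle, 0.473, 0.439 and 0.660 in bleomycin and 0.863, 0.657 and 0.926 with ST045849.

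Cox4i1 and Cox4i2 are alternative forms of the regulatory subunit IV, the second known to be induced at low oxygen. Cox4i1 had FPKM of 232, 201 and 228 in vehicle, 118, 143 and 140.4 in bleomycin and 181, 292 and 318 in bleomycin plus ST045849, and its bleomycin libraries lay below all 6 others. Its difference between bleomycin and vehicle was -0.71 ± 0.24 SE with an adjusted p of 0.138, which did not pass. It passed in the fit of the 2 groups alone (adjusted p 0.0443), with the length trend removed (0.0254) and without ST045849 library 1 (0.0456). Cox4i2 had FPKM of 120.4, 66.3 and 61.6 in vehicle, 137, 138 and 89.6 in bleomycin and 162, 247 and 172 in bleomycin plus ST045849, with a difference of 0.59 ± 0.30 SE and an adjusted p of 0.362. The ratio of Cox4i2 to Cox4i1 was 0.520, 0.331 and 0.271 in vehicle, 1.16, 0.962 and 0.638 in bleomycin and 0.897, 0.849 and 0.540 in bleomycin plus ST045849. Both treated groups lay above vehicle without overlap (two-sided exact permutation p 0.1 each) and overlapped each other (p 0.5).

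**Figure D2:**
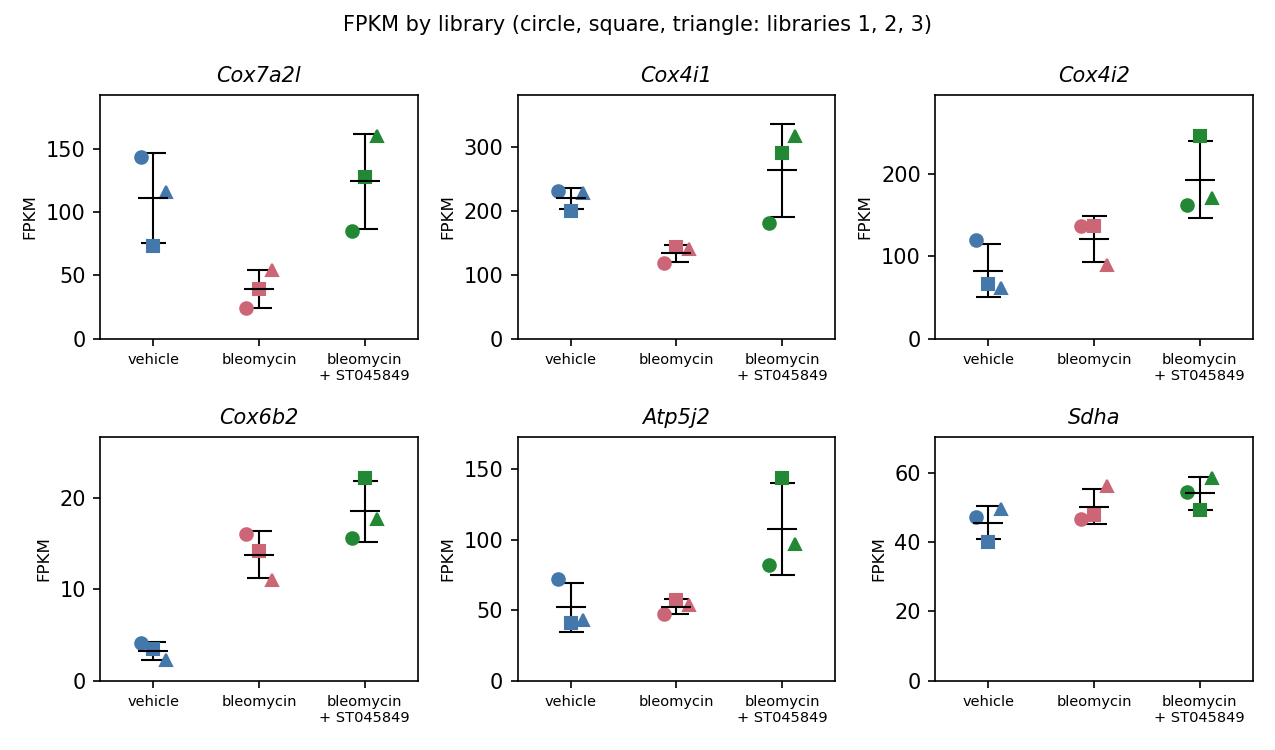
FPKM of 6 subunit genes in each library, with the group mean and SD (n = 3), on linear axes from 0. Cox7a2l and Cox4i1 are lowest in bleomycin, Cox6b2 is lowest in vehicle, and Sdha is close to level over the 3 groups.

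The promoters of the 2 genes called in this comparison are shown beside those of Cox6a1, the most abundant complex IV member, and Atp5j2, called against vehicle in the third comparison. Each run of 300 bases covers 250 bases before and 50 after the gene start in RefSeq (GRCm38.p6), read 5′ to 3′ on the gene's strand, which is the minus strand for all 4: Cox6b2 at chr7:4753045-4753344, Cox7a2l at chr17:83514284-83514583, Cox6a1 at chr5:115348909-115349208 and Atp5j2 at chr5:145191492-145191791. Capitals mark matches to 3 motif cores known from respiratory gene promoters, searched on both strands: GCGCATGCG for NRF1, CCGGAAG for the ETS factor GABPA, and AAGATGGCG for YY1.
Cox6b2: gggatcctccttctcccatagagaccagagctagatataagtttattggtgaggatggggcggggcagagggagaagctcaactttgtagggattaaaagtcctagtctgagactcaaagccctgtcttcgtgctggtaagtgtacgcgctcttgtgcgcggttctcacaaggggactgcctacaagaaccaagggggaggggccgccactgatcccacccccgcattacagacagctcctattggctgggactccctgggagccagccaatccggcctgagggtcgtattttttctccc
Cox7a2l: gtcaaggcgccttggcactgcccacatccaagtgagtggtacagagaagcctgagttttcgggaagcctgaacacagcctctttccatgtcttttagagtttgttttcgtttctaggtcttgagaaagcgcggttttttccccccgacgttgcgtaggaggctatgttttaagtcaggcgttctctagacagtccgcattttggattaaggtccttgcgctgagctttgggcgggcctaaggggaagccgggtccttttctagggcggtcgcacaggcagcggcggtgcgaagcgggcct
Cox6a1: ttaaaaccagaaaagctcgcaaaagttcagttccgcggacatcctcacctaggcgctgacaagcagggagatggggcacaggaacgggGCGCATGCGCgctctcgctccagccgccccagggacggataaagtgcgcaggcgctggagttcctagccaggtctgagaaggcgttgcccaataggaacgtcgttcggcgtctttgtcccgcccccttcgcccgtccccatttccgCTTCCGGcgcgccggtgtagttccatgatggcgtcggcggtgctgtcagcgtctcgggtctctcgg
Atp5j2: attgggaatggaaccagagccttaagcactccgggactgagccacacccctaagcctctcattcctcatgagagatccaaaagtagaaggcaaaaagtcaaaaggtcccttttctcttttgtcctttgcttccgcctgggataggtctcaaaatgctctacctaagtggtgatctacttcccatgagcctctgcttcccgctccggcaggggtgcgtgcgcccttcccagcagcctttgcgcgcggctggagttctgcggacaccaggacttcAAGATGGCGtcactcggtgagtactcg
In Cox6a1 the NRF1 core matched on both strands in overlapping positions and the ETS core matched once, on the opposite strand, while Atp5j2 held the YY1 core. The other 2 promoters held none of these letters. For Cox7a2l the window follows the RefSeq start and lies inside the gene span given above. The upstream end of that span was not searched. RefSeq promoters were matched by symbol for 65 of the 80 members. The NRF1 core was present in 8 of them (12.3%) against 1.95% of 27025 genes, the ETS core in 17 (26.2%) against 9.93%, and the YY1 core in 7 (10.8%) against 1.64%. The 27025 genes were not limited to genes expressed in these cells or matched for base content. The shares are therefore not read as particular to the members. A match is a description of the letters and not a measured binding site.

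Bleomycin plus ST045849 against bleomycin asks what the inhibitor added to damaged cells changed. All 80 subunit genes had a higher mean log2(FPKM + 1) with ST045849, in all 5 complexes, from 0.11 log2 units for Sdha and Cox7a1 to 1.67 for Cox7a2l. Among them Cox6a2 and Cox7a1 passed the filter only with ST045849 libraries counted, which favours a higher value there. The median difference was 0.81 over the members and 0.06 over all tested genes. By complex it was 0.79 for I, 0.56 for II, 0.71 for III, 0.91 for IV and 0.84 for V. In the 3-group fit with limma no gene passed an adjusted p of 0.05, among the members or in all (0% of tested genes; lowest member adjusted p 0.203). At an unadjusted p under 0.05, 58 of 80 members were higher, against 13.7% of all tested genes. The groups did not overlap for 35 of 80 members, against 16.5% of tested genes that were higher without overlap.

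Libraries of equal number in these 2 groups deviated from their group means together, so the comparison was also fitted paired, on the 2 groups alone with the replicate number as a block. The labels do not give this pairing, which was read from the same values that the paired fit tests. In the paired fit 60 of 80 members were called higher, 30 of complex I, 1 of complex II, 6 of complex III, 12 of complex IV and 11 of complex V, against 11.3% of all tested genes. Each SE given with a difference is that of the 3-group fit, also where only the paired adjusted p stands beside it. The mean log2(FPKM + 1) over the members was 6.17, 5.45 and 5.67 in vehicle, 5.52, 5.87 and 5.72 in bleomycin and 5.92, 6.84 and 6.67 in bleomycin plus ST045849. The pairwise differences of ST045849 over bleomycin were therefore 0.40, 0.97 and 0.95 for libraries 1, 2 and 3, so that pair 1 had the smallest. Of the members, 76 were higher in each of the 3 pairs, and the exceptions were Ndufa10, Ndufs1, Cox6b2 and Cox7a1. Of all tested genes 55.1% had a higher mean with ST045849, and their share higher in each pair is not given here. ST045849 library 1 stood closest to the bleomycin group, and without it the unpaired 3-group fit called 57 members and their median difference was 1.13. The share called and the median over all tested genes in that fit are not given here. Neither value is therefore read as particular to the members.

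**Figure D3:**
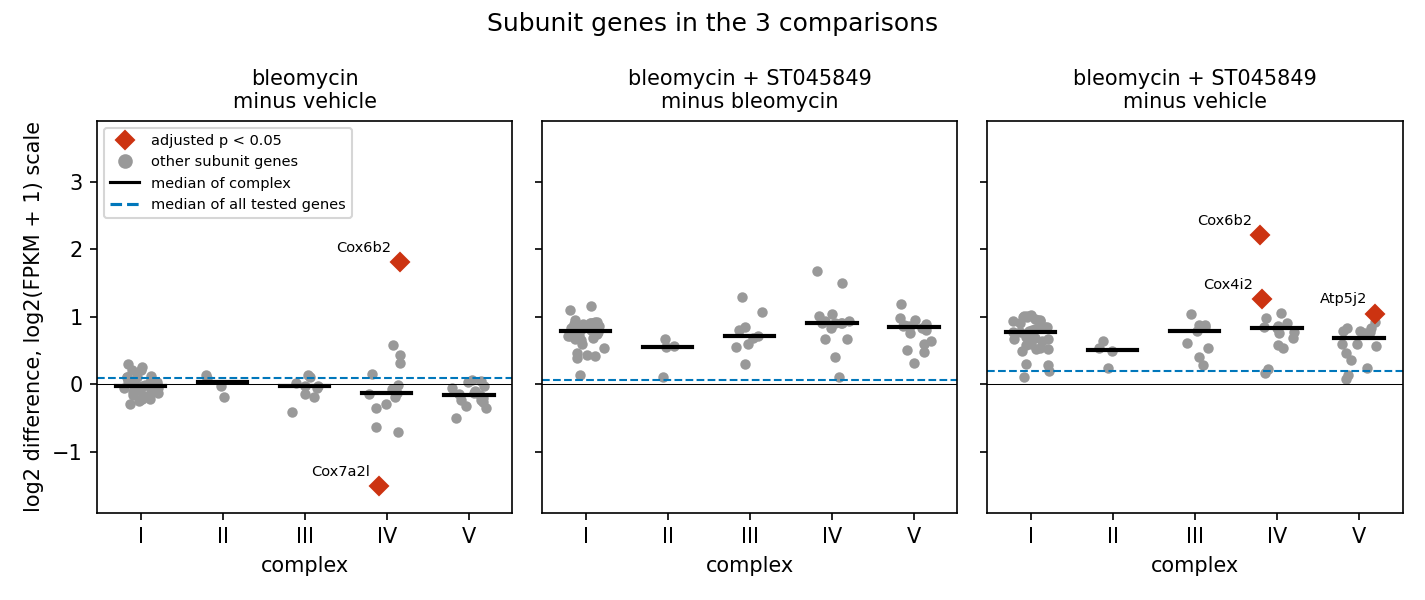
Log2 difference of each subunit gene, 1 point per gene, in 3 comparisons, with the median of each complex (black) and of all tested genes (blue, dashed). Red diamonds mark genes with an adjusted p under 0.05 in the 3-group fit. In the middle panel all 80 points lie above 0.

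In complex I the core subunits Ndufs1, Ndufs3, Ndufs7, Ndufs8, Ndufv1 and Ndufv2, which serve the path of electrons from NADH to ubiquinone, had differences of 0.14 to 0.71, and these 6 lay under the complex median. With the length trend removed, 4 of the 6 did, and Ndufs1 (0.39) and Ndufv2 (0.35) lay above the median of 0.33. The subsets named here and in complexes III and V were drawn by textbook role after the values were seen. Ndufs1, the largest iron-sulfur subunit, had FPKM of 33.4, 21.4 and 32.7 in vehicle, 25.9, 27.2 and 31.0 in bleomycin and 28.6, 24.7 and 41.2 in bleomycin plus ST045849, and its groups overlapped throughout. Its difference of 0.14 ± 0.24 SE was the smallest in complex I (adjusted p 0.734, paired 0.622), and it turned negative under quantile normalization and TPM. Ndufv1, which binds FMN and NADH, had FPKM of 30.4, 19.0 and 15.9 in vehicle, 21.4, 25.8 and 21.8 in bleomycin and 24.0, 41.3 and 29.8 in bleomycin plus ST045849. Its ST045849 library 1 fell within the range of the bleomycin libraries.

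Ndufb5, an accessory subunit of the membrane arm, had the lowest p of complex I, with FPKM of 47.8, 37.7 and 35.1 in vehicle, 29.3, 36.7 and 31.1 in bleomycin and 41.7, 72.4 and 63.8 in bleomycin plus ST045849. The ST045849 libraries all exceeded the bleomycin libraries but library 1 lay within the vehicle range. The difference was 0.82 ± 0.24 SE (adjusted p 0.203, paired 0.0222). Ndufv3, an accessory subunit of the NADH arm, was the most abundant of complex I at FPKM of 152, 105 and 111 in vehicle, 98.5, 137 and 125 in bleomycin and 126, 318 and 232 in bleomycin plus ST045849, and differed by 0.81 ± 0.32 SE (paired adjusted p 0.0295), or by 0.51 without ST045849 library 2. Ndufa4, named for complex I but known as a complex IV subunit, had FPKM of 62.3, 30.9 and 33.4 in vehicle, 32.8, 48.8 and 37.4 in bleomycin and 48.7, 94.4 and 85.4 in bleomycin plus ST045849, with libraries 2 and 3 of ST045849 highest. Ndufs5 had FPKM of 54.7, 36.9 and 58.2 in vehicle, 32.1, 45.1 and 62.0 in bleomycin and 42.1, 107 and 111 in bleomycin plus ST045849 and is uncertain, because its pseudogene Ndufs5-ps, which shares at least 95% of its sequence over at least 50% of the transcript, was itself listed at a mean of 10.9 FPKM.

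Complex II, the only complex with no subunit in mitochondrial DNA, had the smallest median difference of the 5. Sdha, the flavoprotein that oxidizes succinate, had FPKM of 47.2, 40.2 and 49.5 in vehicle, 46.7, 47.8 and 56.1 in bleomycin and 54.4, 49.2 and 58.6 in bleomycin plus ST045849. Its groups overlapped and the difference was 0.11 ± 0.18 SE (adjusted p 0.726, paired 0.695), turning negative under quantile normalization and TPM. Sdhb, the iron-sulfur subunit, had FPKM of 81.8, 42.5 and 57.2 in vehicle, 45.2, 56.8 and 52.7 in bleomycin and 54.8, 110.0 and 92.9 in bleomycin plus ST045849 and was the 1 complex II gene called in the paired fit. Its partners in the membrane, Sdhc and Sdhd, anchor the complex and bind ubiquinone. Sdhc had FPKM of 26.1, 16.9 and 14.7 in vehicle, 19.1, 21.3 and 14.8 in bleomycin and 24.3, 34.6 and 24.6 in bleomycin plus ST045849. Sdhd had FPKM of 86.3, 64.4 and 54.3 in vehicle, 68.3, 84.5 and 63.2 in bleomycin and 88.9, 111 and 117 in bleomycin plus ST045849, with a difference of 0.55 ± 0.23 SE and a paired adjusted p of 0.0678. Here too ST045849 library 1 was the lowest of its group for Sdhb, Sdhc and Sdhd, whereas for Sdha it was library 2.

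In complex III the 5 small subunits had differences of 0.71 to 1.29, and the 4 core and redox subunits 0.30 to 0.69. With the length trend removed these ranges overlapped, at 0.19 to 0.90 and 0.02 to 0.53. Uqcrq, a small subunit beside cytochrome b, had FPKM of 106, 51.4 and 57.1 in vehicle, 42.2, 59.1 and 52.0 in bleomycin and 67.6, 207 and 141 in bleomycin plus ST045849. All ST045849 libraries lay above all bleomycin libraries, and the difference was 1.29 ± 0.39 SE (adjusted p 0.203, paired 0.0135). Uqcrh, the hinge protein and the most abundant of the complex, had FPKM of 215, 145 and 179.8 in vehicle, 132, 171 and 166 in bleomycin and 167, 347 and 344 in bleomycin plus ST045849 and a difference of 0.80 ± 0.30 SE (paired adjusted p 0.0303). The 2 redox-active subunits were Cyc1, cytochrome c1, with FPKM of 45.1, 28.2 and 20.8 in vehicle, 30.9, 38.1 and 28.1 in bleomycin and 34.8, 82.0 and 50.2 in bleomycin plus ST045849, and Uqcrfs1, the Rieske iron-sulfur protein, with 43.9, 29.2 and 26.0 in vehicle, 27.2, 32.9 and 27.2 in bleomycin and 31.7, 47.3 and 53.3 in bleomycin plus ST045849. Cyc1 differed by 0.69 ± 0.34 SE and was called in the paired fit only (3-group adjusted p 0.235, paired 0.0441). Without ST045849 library 2, its highest library, the Cyc1 difference was 0.37. Uqcrfs1 was not called, and neither were the core proteins Uqcrc1 and Uqcrc2, the second of which spanned only 36.9 to 58.6 FPKM over the bleomycin and ST045849 libraries.

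Complex IV had the highest median difference. Cox7a2l, low in bleomycin, differed by 1.67 ± 0.35 SE (adjusted p 0.203, paired 0.0037), the largest difference of the 80. Its ST045849 libraries were all above the bleomycin libraries and 2 of the 3 lay within the vehicle range. Cox4i1 followed the same order of groups, with a difference of 0.94 ± 0.24 SE (adjusted p 0.203, paired 0.0196). Because this comparison and the first share the bleomycin libraries, low values there enter both differences. Cox4i2 differed by 0.67 ± 0.30 SE (paired adjusted p 0.0461) and Cox6a1 by 0.91 ± 0.32 SE (paired adjusted p 0.0236), while Cox6b2 differed by 0.40 ± 0.23 SE (paired adjusted p 0.162) and passed in neither fit.

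Among the other complex IV genes, Cox5a and Cox5b sit next to the catalytic core. Cox5a had FPKM of 70.4, 34.3 and 34.8 in vehicle, 37.2, 48.8 and 35.1 in bleomycin and 50.3, 102 and 84.8 in bleomycin plus ST045849. Cox5b had FPKM of 95.5, 51.6 and 74.5 in vehicle, 43.6, 59.8 and 68.1 in bleomycin and 61.0, 146 and 141 in bleomycin plus ST045849, and for both genes vehicle library 1 lay above ST045849 library 1. The muscle form Cox6a2 was low throughout, at FPKM of 2.08, 0.668 and 1.24 in vehicle, 0.406, 0.569 and 0.412 in bleomycin and 1.10, 6.16 and 3.66 in bleomycin plus ST045849. Its bleomycin libraries were the 3 lowest and the difference was 1.50 ± 0.38 SE (adjusted p 0.203, paired 0.0125), on a scale that understates changes near 1 FPKM. Cox6a2 reached 1 FPKM in vehicle libraries 1 and 3 and in the 3 ST045849 libraries, but in no bleomycin library. It passed the filter only with ST045849 libraries counted, so the direction of this difference is partly set by the filter. The skeletal muscle list had 3 of 8 genes above the filter, summed to 7.18 to 7.43 FPKM in vehicle, 6.93 to 9.90 in bleomycin and 8.42 to 15.2 with ST045849. Its member Des, a muscle intermediate filament gene, had FPKM of 2.09, 1.88 and 1.36 in vehicle, 3.20, 4.51 and 3.27 in bleomycin and 3.08, 8.82 and 3.95 with ST045849 and was called higher with both agents than in vehicle (adjusted p 0.0432). Acta1 and Tnnt3 passed in no comparison, and Myh1, Myh4 and Ckm were under 0.1 FPKM in all 9 libraries. The part of such cells in the Cox6a2 values was not tested.

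In complex V the alpha, beta and gamma subunits, the catalytic head and its rotor, had differences of 0.31 to 0.51, under the complex median, and of 0.11 to 0.42 with the length trend removed. Atp5b differed by 0.47 ± 0.29 SE (adjusted p 0.313, paired 0.117), or by 0.25 without ST045849 library 2. Atp5a1, the alpha subunit, spanned 140.4 to 178 FPKM in bleomycin and 195 to 207 with ST045849, without overlap. Atp5c1, the gamma subunit of the rotor, had FPKM of 134, 92.4 and 136 in vehicle, 97.2, 101 and 126 in bleomycin and 109, 162 and 205 in bleomycin plus ST045849. Atp5j2, the membrane subunit f, had FPKM of 72.0, 40.8 and 42.8 in vehicle, 47.1, 57.0 and 53.5 in bleomycin and 81.9, 144 and 96.8 in bleomycin plus ST045849, all ST045849 libraries above the 6 others. Its difference was 0.98 ± 0.27 SE (adjusted p 0.203, paired 0.0171).

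The proton-carrying c ring is made from 3 genes that encode the same mature protein. Atp5g1 had FPKM of 69.2, 32.4 and 27.0 in vehicle, 27.8, 38.9 and 26.2 in bleomycin and 42.6, 121 and 67.7 in bleomycin plus ST045849. Atp5g2 had FPKM of 89.8, 71.0 and 68.7 in vehicle, 55.6, 59.7 and 46.7 in bleomycin and 62.3, 113 and 84.2 in bleomycin plus ST045849, and Atp5g3 had FPKM of 152, 91.7 and 86.3 in vehicle, 97.0, 135 and 98.7 in bleomycin and 142, 229 and 194 in bleomycin plus ST045849. The Atp5g1 difference was 1.18 ± 0.41 SE (paired adjusted p 0.0156), and that of Atp5g2 was 0.63 ± 0.24 SE (paired 0.0521). Atp5g1 is uncertain, since its near-identical pseudogene Gm10039 was listed at a mean of 37.5 FPKM against 50.4 for the gene. Atp5l has the same limit, with 9 near-identical copies, the highest at 22.5 against 76.6 FPKM. The search for copies used the annotated principal transcript of a gene, which 77 of the 80 members had, and the rest were not searched. Such a copy was found for 13 members, at 5% or more of the member's own level for Atp5g1, Atp5l and Ndufs5. A further limit is that 11 members share over 10% of their exon length with another gene, most on the opposite strand (Ndufb6 39.0%, Atp5o 35.6%, Ndufa13 30.0%), and the sources used here do not say whether counting used strand.

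FPKM differences in these libraries followed gene length, and respiratory subunits are short genes. The members had a median total exon length of 1578 bases (419 to 8086), against 4247 for all tested genes. A doubling of exon length went with a shift relative to the gene means of -0.07, 0.10 and 0.08 log2 units in vehicle, 0.10, 0.04 and 0.09 in bleomycin and 0.02, -0.21 and -0.14 in bleomycin plus ST045849. Libraries 2 and 3 with ST045849 and vehicle library 1, the 3 with negative slopes, were also the 3 highest in the members. Among genes of like length the members still stood higher. For exon lengths under 1000 bases the median difference of ST045849 over bleomycin was 0.83 in 20 members and 0.47 in 839 other genes, and from 1000 to 2000 it was 0.86 in 31 and 0.47 in 1352. From 2000 to 4000 it was 0.67 in 20 members against 0.23 in 3548 others, and from 4000 to 8000 it was 0.83 in 8 against -0.08 in 4499. Above that, Ndufs1 alone had 0.14 against -0.40 in 2119. In all, 77 of 80 members exceeded the median of their band. Some members with long total exons have short transcripts, as Ndufs1 does with a median transcript of 651 bases. By median transcript length, 62 members were under 1000 bases, with a median of 0.84 against 0.37 in 2832 others. From 1000 to 2000 bases it was 0.55 in 15 against 0.26, and from 2000 to 4000 it was 0.83 in 3 against -0.04. No member was longer, and 77 of 80 again exceeded their band median.

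**Figure D4:**
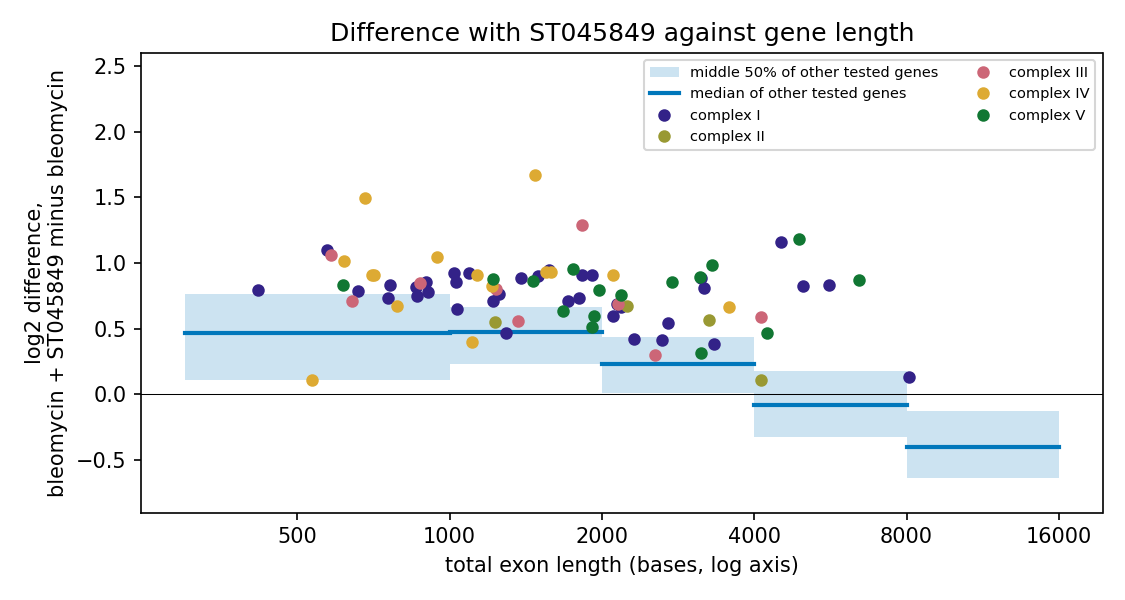
Log2 difference of bleomycin plus ST045849 over bleomycin for each subunit gene against total exon length (log axis), coloured by complex, with the median and middle 50% of the other tested genes in 5 length bands (the outer bands are drawn over the plotted range only). Most members lie above the band of their length.

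With each library's length trend subtracted, the median difference of ST045849 over bleomycin was 0.37 over the members and 0.01 over all genes, and 77 of 80 members stayed above 0. The complexes kept positive medians of 0.33, 0.21, 0.34, 0.50 and 0.42 for I to V. No member passed in the 3-group fit of these values, and 17 of 80 were higher at an unadjusted p under 0.05, against 8.07% of tested genes. In the paired fit Cox7a2l alone was called (difference 1.23, adjusted p 0.0380), 1 of 80 against 0.257% of tested genes. The mean differences of the 3 pairs over all members became 0.22, 0.50 and 0.50. Whether the length trend arose in the cells or in the libraries was not tested.

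**Figure D5:**
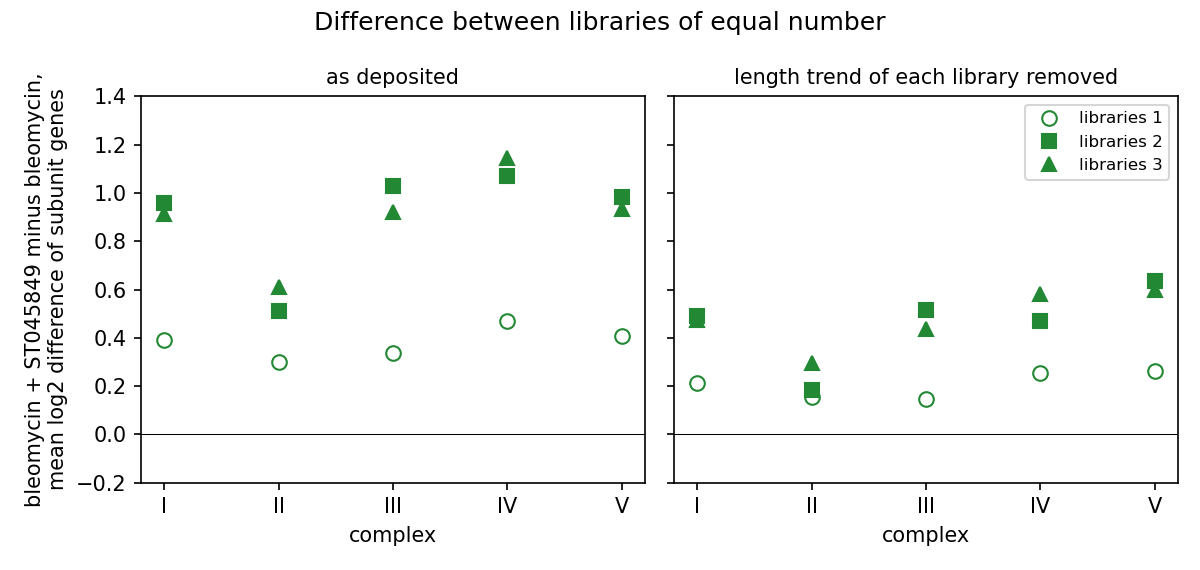
Mean log2 difference of the subunit genes of each complex between bleomycin plus ST045849 and bleomycin libraries of equal number, as deposited and after subtracting the length trend. All 15 differences are above 0 in both panels, and pair 1 (open circles) is the lowest in each complex.

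Scaling moved the level of all genes together with the members. The median of all tested genes went from 0.06 to -0.01 with median-of-ratios scaling and to -0.19 in TPM, while that of the members went from 0.81 to 0.72 and 0.53. The gap between the 2 medians was 0.74, 0.73 and 0.72 in the 3 settings. In TPM 77 of 80 members were above 0.

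Bleomycin plus ST045849 against vehicle shares its libraries with the other 2 comparisons and is given beside them. All 80 members had higher means with both agents, with a median difference of 0.77 against 0.19 for all tested genes, and medians of 0.77, 0.51, 0.79, 0.83 and 0.68 by complex. In TPM 72 were higher and with median-of-ratios scaling 74. Cox6b2, Cox4i2 and Atp5j2 were called higher, 3 of 80, against 8.11% of all tested genes. Cox6b2 differed by 2.21 ± 0.23 SE (adjusted p 0.0010), Cox4i2 by 1.26 ± 0.30 SE (adjusted p 0.0276) and Atp5j2 by 1.05 ± 0.27 SE (adjusted p 0.0375). For all 3 genes every library with both agents lay above every vehicle library. Only Cox6b2 kept its call without any 1 library and under every other setting. Ndufa5, an accessory subunit of complex I with FPKM of 35.3, 25.7 and 34.5 in vehicle, 31.4, 42.3 and 40.0 in bleomycin and 40.3, 67.2 and 78.3 in bleomycin plus ST045849, was next at 0.90 ± 0.26 SE (adjusted p 0.0536). The count rested on single libraries: it was 23 without vehicle library 1, the highest vehicle library in these genes, and 53 without ST045849 library 1. The shares of all tested genes called in those fits are not given here, and the 8.11% belongs to the fit of all 9 libraries.

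With the length trend removed the median against vehicle was 0.28, with 69 of 80 higher, and Cox6b2 alone was called. Without that step Cox7a2l and Cox4i1, whose bleomycin libraries were the lowest, overlapped between vehicle and both agents, as their values above show.

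The members varied together from library to library. The Pearson correlation of a gene with the mean of the other members over the 9 libraries had a median of 0.939, and 52 of 80 were at 0.9 or more; the points share each library's length slope and scaling. The lowest were Ndufs1 (0.391), Sdha (0.457), Cox6b2 (0.483) and Cox7a2l (0.643). Among genes outside the set, those most like the member mean were Ndufb1-ps (0.996), named after a complex I subunit, Tomm7 (0.996), a part of the outer membrane import pore, Psma5 (0.993), a proteasome subunit, Supt4a (0.992) and Ppdpf (0.992). All 5 have exon lengths of 942 to 1336 bases, below the member median.

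Subunits and partners whose names fall outside the rule had similar orders. Ndufab1, the acyl carrier protein of complex I, had FPKM of 29.9, 27.1 and 33.6 in vehicle, 20.7, 31.1 and 28.9 in bleomycin and 32.7, 57.5 and 71.0 in bleomycin plus ST045849. Atp5pb, subunit b of ATP synthase, had FPKM of 106, 54.8 and 88.6 in vehicle, 68.3, 97.8 and 109 in bleomycin and 95.6, 138 and 184 in bleomycin plus ST045849. Atpif1, the inhibitor of ATP synthase, had FPKM of 116, 78.4 and 110.0 in vehicle, 85.3, 129 and 119 in bleomycin and 122, 270.1 and 263 in bleomycin plus ST045849, with libraries 2 and 3 of ST045849 highest in all 3 genes. Ndufa4l2, a hypoxia-induced relative of Ndufa4 known to lower complex I activity, was above every member in each library, with FPKM of 752, 519.6 and 552 in vehicle, 669, 703 and 669 in bleomycin and 825, 1169 and 955 in bleomycin plus ST045849, and passed in none of the comparisons. Cycs, cytochrome c, had FPKM of 15.2, 6.96 and 9.63 in vehicle, 7.73, 10.6 and 10.5 in bleomycin and 8.81, 19.8 and 15.6 in bleomycin plus ST045849 and did not pass in the paired fit (adjusted p 0.0795).

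Assembly factors build the complexes without staying in them. With ST045849 over bleomycin the median was 0.44 over 18 factors of complex I, 0.58 over 8 of complexes II and III, 0.54 over 26 of complex IV and 0.36 over 4 of complex V. In the paired fit 5, 3, 11 and 1 of them were called higher and 0 lower, 20 of 56 in all (35.7%) against 11.3% of all tested genes. Against vehicle, Tmem126b of complex I, Uqcc3 of complex III, and Pet100, Cox14, Higd2a and Surf1 of complex IV were called higher with both agents, 6 of 56 (10.7%), near the 8.11% of all tested genes. Uqcc3 had FPKM of 22.5, 14.8 and 16.2 in vehicle, 19.6, 22.9 and 22.5 in bleomycin and 24.6, 50.6 and 49.0 in bleomycin plus ST045849, with a difference from vehicle of 1.12 ± 0.28 SE and an adjusted p of 0.0311. The tricarboxylic acid cycle list of 20 genes had a median of 0.26 with 2 called higher in the paired fit, and ubiquinone synthesis with the electron carriers, 19 genes, had 0.36 with 2 higher and 1 lower, Gpd2. The median difference was 0.16 over 14 genes of mitochondrial transcription, with 2 called higher. The called shares of these last 3 lists lie near the 11.3% of all tested genes. Among the transcription genes Nrf1 had FPKM of 6.22, 6.05 and 5.55 in vehicle, 5.50, 7.08 and 7.93 in bleomycin and 7.39, 6.68 and 6.62 in bleomycin plus ST045849 and Tfam, which packages mitochondrial DNA, had FPKM of 7.75, 5.36 and 6.65 in vehicle, 6.42, 6.83 and 6.62 in bleomycin and 8.94, 9.27 and 12.3 in bleomycin plus ST045849, while Ppargc1a, a coactivator of mitochondrial biogenesis, stayed under 0.5 FPKM in all 9 libraries.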

How the data were processed

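Per the labels' protocols, libraries were made from total RNA with a stranded mRNA kit. Per the submitters' processing notes, Trimmomatic, STAR and the build GRCm38 were used. The deposited values are FPKM per gene, made by the authors; for the quantifier, annotation and use of strand the entry is: not given in the sources used here. FPKM carry no counts: relative depth read from the steps of low values was 0.875 to 1.01 of vehicle library 1, but only 34.5 to 39.5% of values came out whole within a tolerance of 0.02 reads (4% by chance), so no count test was run. Gene positions and lengths are from GENCODE vM21, which held 55190 of 55450 identifiers.

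Log2(FPKM + 1) of genes with at least 1 FPKM in 3 or more libraries was fitted over all 9 libraries with limma 3.58.1 in R 4.3.3 (variance trend, 6 residual and 4.95 prior degrees of freedom), with Benjamini-Hochberg adjustment over all 12441 genes. Fold changes of low genes are understated on this scale. The scripts were tested on simulated data. Length trends were removed per library by loess (span 0.5) on log2 exon length. The members, gene lists and tests were chosen with earlier results of these data known. Genes are named by rule: per complex the member with the highest mean and those with the smallest p in each direction of each comparison, a list fixed by role, 2 genes per further list and 8 fixed outside genes; others are named where a count or range needed it, after their values were seen. The values of 1 member are not reported here. Alternatives were 13 planned settings, leaving out each library, and 1 added after seeing the data (length as the median transcript). Equal replicate numbers correlated at 0.466, 0.481 and 0.500 between bleomycin and bleomycin plus ST045849 in deviations from the group means, always above unequal numbers, so that comparison is also given with a replicate block. This pairing comes from the data, not the labels. The paired fit, on the 2 groups alone, has fewer residual degrees of freedom than the fit of all 9 libraries. Between vehicle and the other groups equal numbers ran from -0.52 to 0.55.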

Additional observations from a re-analysis of the deposited data

How the results depend on the processing

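The count of subunit genes called between bleomycin and vehicle (2) was 1 with no filter on low values, 1 in the fit of the 2 groups with a replicate block, 4 with that block and the length trend removed, and 1 to 3 when 1 library was left out. Between bleomycin plus ST045849 and bleomycin (0) it was 60 with the replicate block, 1 with the block and the length trend removed, and 0 to 57 when 1 library was left out. Between bleomycin plus ST045849 and vehicle (3) it was 1 with no filter, with median-of-ratios scaling, quantile normalization or TPM, in the 2 groups alone with or without the block, and with the length trend removed by either length, with or without the block; it was 1 to 53 when 1 library was left out. The shares of all tested genes called with 1 library left out are not given here, so those counts are not read as particular to the members. Removing the length trend, with or without the block, moved the median differences to 0.37 (ST045849 over bleomycin) and 0.28 (over vehicle, or 0.39 with median transcript length). In ST045849 over bleomycin, Ndufs1 turned to -0.069 with quantile normalization, ran from -0.0689 (without ST045849 library 3) to 0.289 when 1 library was left out, and turned to -0.14 in TPM and to -0.19 with median transcript length. Sdha turned to -0.19, -0.17 and -0.0273 with quantile normalization, TPM and median transcript length. Cox6b2 turned to -0.0913 with the length trend removed, with or without the block. The cause of these shifts was not tested. The median with the length trend removed stayed between 0.28 and 0.55 in every alternative run. The vehicle numbers do not pair with the others, and the block took the bleomycin against vehicle call of Cox7a2l (adjusted p 0.0707). Depth is known only in relative terms, so no counting error can be given.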

Other observations

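Gene groups outside the respiratory chain showed how far the pattern of ST045849 over bleomycin reached. The 78 mitochondrial ribosomal protein genes, which translate the subunits encoded in mitochondrial DNA, were all higher, with a median log2 difference of 0.62, and 43 were called in the paired fit. The 86 cytosolic ribosomal protein genes were all higher as well (median 0.86, 75 called), after a median of -0.62 in bleomycin against vehicle with 1 of 86 higher. The 38 proteasome genes had a median of 0.60 with 20 called. In the same paired fit 11.3% of all tested genes were called higher, beside which the counts here and in the next paragraph stand. With the length trend removed these medians were 0.33, 0.49 and 0.34, beside 0.37 for the respiratory subunits. These comparisons share the bleomycin libraries, and no difference between the groups was tested.

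A list of 17 genes around ATF4 and mitochondrial stress had the highest median of the 13 lists, 1.28, and 0.91 with the length trend removed. All 17 were higher and 15 were called in the paired fit. In bleomycin against vehicle the median of this list was -0.53, with 3 of 17 higher. With both agents against vehicle it was 0.71, with all 17 higher and 1 called, beside 8.11% of all tested genes called higher. Asns, which makes asparagine, had FPKM of 116, 55.7 and 94.5 in vehicle, 44.7, 52.0 and 59.5 in bleomycin and 94.6, 206 and 162 with ST045849. Gdf15, a secreted stress signal, had 9.71, 2.08 and 1.19, then 7.93, 8.90 and 8.89, then 15.9, 41.5 and 31.5, and was called against vehicle (difference 2.78 ± 0.51 SE, limma adjusted p 0.0090). The 14 genes of mitophagy and hypoxic adaptation had a median of 0.02, with Sqstm1 called in the paired fit and Sqstm1 and Pink1 called against vehicle. The 11 mitochondrial carriers had a median of 0.47, with 4 called. Ogt, the target of the inhibitor, had 28.1, 48.9 and 48.7 FPKM in vehicle, 42.7, 29.3 and 38.8 in bleomycin and 23.4, 10.3 and 22.3 with ST045849, lower by a log2 difference of -1.01 (paired adjusted p 0.0169). Its exon length of 8045 bases is among those whose genes had a median of -0.40 in this comparison.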
